A study of Mus musculus with 6 samples.

Results

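The genes described here are 10 activity-induced effector genes, Arc, Bdnf, Vgf, Scg2, Nptx1, Nptx2, Inhba, Homer1, Pcsk1 and Nrn1, whose products are secreted or act at synapses. They were picked by symbol from the 24972 genes of the deposited table, and all 10 were found and had values high enough to be tested. RNA was sequenced from mouse cortex at postnatal day 7, in 3 wildtype libraries, genotype Zmiz1f/f in the labels, and 3 libraries labelled Zmiz1-KO, genotype Zmiz1f/f;Emx1Cre. Both groups thus carry the floxed allele, and the Cre driven from Emx1, a gene of dorsal forebrain progenitors, is given for the Zmiz1-KO libraries alone. Emx1-Cre acts in the lineage of cortical excitatory neurons and glia, while interneurons of ventral origin, microglia and vessels do not descend from it. The methods give 3 dissected cortex samples per genotype but do not say that each is a separate animal. As each group holds libraries of both sexes (below), it came from more than a single animal, and the p values measure the spread between these libraries, part of which may be technical. The labels name the tissue as cortex but speak of isolating progenitors in the note on treatment. The summed level of 6 excitatory neuron genes, among them Slc17a7 and Neurod6, was 55282 to 60391 normalized counts per library, and glial, microglial and endothelial genes were present as well.

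Zmiz1 itself was not lower but higher in the group labelled as its knockout. Wildtype replicates 1 to 3 held 8119, 7929 and 7461 normalized counts of it and Zmiz1-KO replicates 1 to 3 held 9944, 9779 and 9660, so that it was higher by 0.32 on the log2 scale (adjusted p = 0.00125 by limma). The table has no value per exon, so this gene-level value cannot show whether the floxed part was lost. For this reason the group is called by its label throughout, and every direction given below is that of the label. Normalized counts summed to 32661979 to 33239707 per library. The most common low value, sought within a fixed narrow window, was about 1.83 to 2.11 normalized counts and was taken as a single read. On that assumption the members rested on about 111 (Bdnf) to 2570 (Scg2) reads per library. Whether such a step is a read or a read pair was not tested. By Xist and Ddx3y, wildtype replicate 3 and Zmiz1-KO replicate 2 were female and the other 4 libraries male.

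When a neuron fires, calcium entry switches on early transcription factors such as Fos and Egr1, and with or after them a set of effector genes whose products change synapses. Bdnf, which acts on the receptor TrkB, and the activin A subunit Inhba are secreted growth factors. Vgf and Scg2 are granin-family precursors of secretory granules, which prohormone convertases such as the product of Pcsk1 cut into peptides. The neuronal pentraxins Nptx1 and Nptx2 gather AMPA receptors at the synapse from outside, and neuritin, the product of Nrn1, is tethered to the outer membrane by a lipid anchor. Arc takes part in the removal of AMPA receptors from the synapse, and Homer1 links metabotropic glutamate receptors to the postsynaptic scaffold, with a short form that is induced by activity. The first postnatal weeks are the time when cortical synapses form, and spontaneous and sensory activity drive these genes.

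A classic switch in promoters of activity-induced genes is the cyclic AMP response element (CRE), at which CREB binds. The RefSeq table of gene starts (GRCm38.p6) held 12 starts of 5 members, namely Bdnf with 7, Homer1 with 2 and Scg2, Inhba and Pcsk1. In the 250 bases before the start, both strands were searched for the full CRE TGACGTCA, its shortened form TGACG (which each full CRE holds on both strands), the AP-1 site TGANTCA of Fos and Jun proteins, the EGR site GCGNGGGCG and the CArG box of serum response factor. Scg2 and Pcsk1 had a full CRE, at 68 to 61 and 78 to 71 bases before the start, against 1.55% of all 32851 starts. Homer1 had 3 and Bdnf 1 shortened forms, found before 17.8% of all starts, and another Bdnf start had an AP-1 match (6.75% of all starts). No EGR site (4.70% of all starts) or CArG box (1.47%) lay in these windows, and that of Inhba held none of the 5 patterns. The sequences shown are those of the members with a full or shortened CRE, and that of Fos, the comparison gene, which has the shortened form too. Capitals mark the CRE matches, each sequence runs 5′ to 3′ on the strand of the gene, and a match says nothing of whether a factor binds there.
Scg2, chr1:79440027-79440276, minus strand: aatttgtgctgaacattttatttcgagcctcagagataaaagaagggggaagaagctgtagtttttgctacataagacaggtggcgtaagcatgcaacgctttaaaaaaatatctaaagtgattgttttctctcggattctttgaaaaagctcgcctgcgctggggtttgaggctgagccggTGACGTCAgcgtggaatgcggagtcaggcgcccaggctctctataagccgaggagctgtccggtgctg
Pcsk1, chr13:75089607-75089856, plus strand: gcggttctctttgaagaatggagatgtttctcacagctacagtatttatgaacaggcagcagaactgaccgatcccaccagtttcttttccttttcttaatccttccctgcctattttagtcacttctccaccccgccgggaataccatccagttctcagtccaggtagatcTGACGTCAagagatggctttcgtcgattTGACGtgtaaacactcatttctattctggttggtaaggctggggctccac
Homer1, chr13:93303507-93303756, plus strand: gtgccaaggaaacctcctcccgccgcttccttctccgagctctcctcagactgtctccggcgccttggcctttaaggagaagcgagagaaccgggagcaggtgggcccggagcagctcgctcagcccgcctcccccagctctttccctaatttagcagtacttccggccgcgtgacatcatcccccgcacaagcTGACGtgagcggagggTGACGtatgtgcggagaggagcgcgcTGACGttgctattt
Bdnf, the third of its starts, chr2:109692186-109692435, plus strand: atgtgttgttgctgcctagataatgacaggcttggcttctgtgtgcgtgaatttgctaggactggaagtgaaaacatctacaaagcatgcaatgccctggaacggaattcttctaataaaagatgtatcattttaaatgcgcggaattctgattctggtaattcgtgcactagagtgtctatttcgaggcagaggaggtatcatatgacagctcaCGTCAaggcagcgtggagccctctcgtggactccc
Fos, chr12:85473640-85473889, plus strand: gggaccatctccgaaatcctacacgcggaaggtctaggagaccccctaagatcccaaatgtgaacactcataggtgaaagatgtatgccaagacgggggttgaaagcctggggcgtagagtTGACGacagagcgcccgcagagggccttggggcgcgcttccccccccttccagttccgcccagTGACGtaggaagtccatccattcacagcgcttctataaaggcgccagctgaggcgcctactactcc

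Few of the effector genes had a called change, while Fos and Egr1 rose. Arc and Vgf rose in the Zmiz1-KO group and passed an adjusted p of 0.05 (limma over 15800 genes), Inhba had the most negative change, -0.59 on the log2 scale, but did not pass, and the other 7 had changes of -0.12 to 0.20 on the log2 scale. Thus 2 of the 10 members were called, both higher, where 0.411% of all tested genes were called, 0.165% higher and 0.247% lower. Because the members and gene lists were chosen with earlier results of these data known, this share and the later ones are descriptions. There was no overlap between groups for 4 members, Arc, Vgf, Nptx2 and Inhba, against 16.3% of tested genes, and the same 4 had an unadjusted p under 0.05, against 11.0%. Of the 10 changes 5 were positive and 5 negative, with a median of -0.013, beside a median of -0.00018 over all tested genes. The summed level of the 10 members, in which the abundant granins weigh most, was 15152 to 15584 normalized counts in wildtype and 15690 to 16316 in the Zmiz1-KO libraries, higher by 3.78% without overlap. With each member given the same weight, as the mean of log2 values relative to wildtype, the libraries overlapped, at -0.016 to 0.017 and -0.050 to 0.034. The median size of the change, sign left aside, was 0.11 for the members and 0.075 for all tested genes. The smallest p that exact permutation of 3 and 3 libraries can give, two-sided, is 0.1, and all 4 non-overlapping members reached it.

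**Figure D1:**
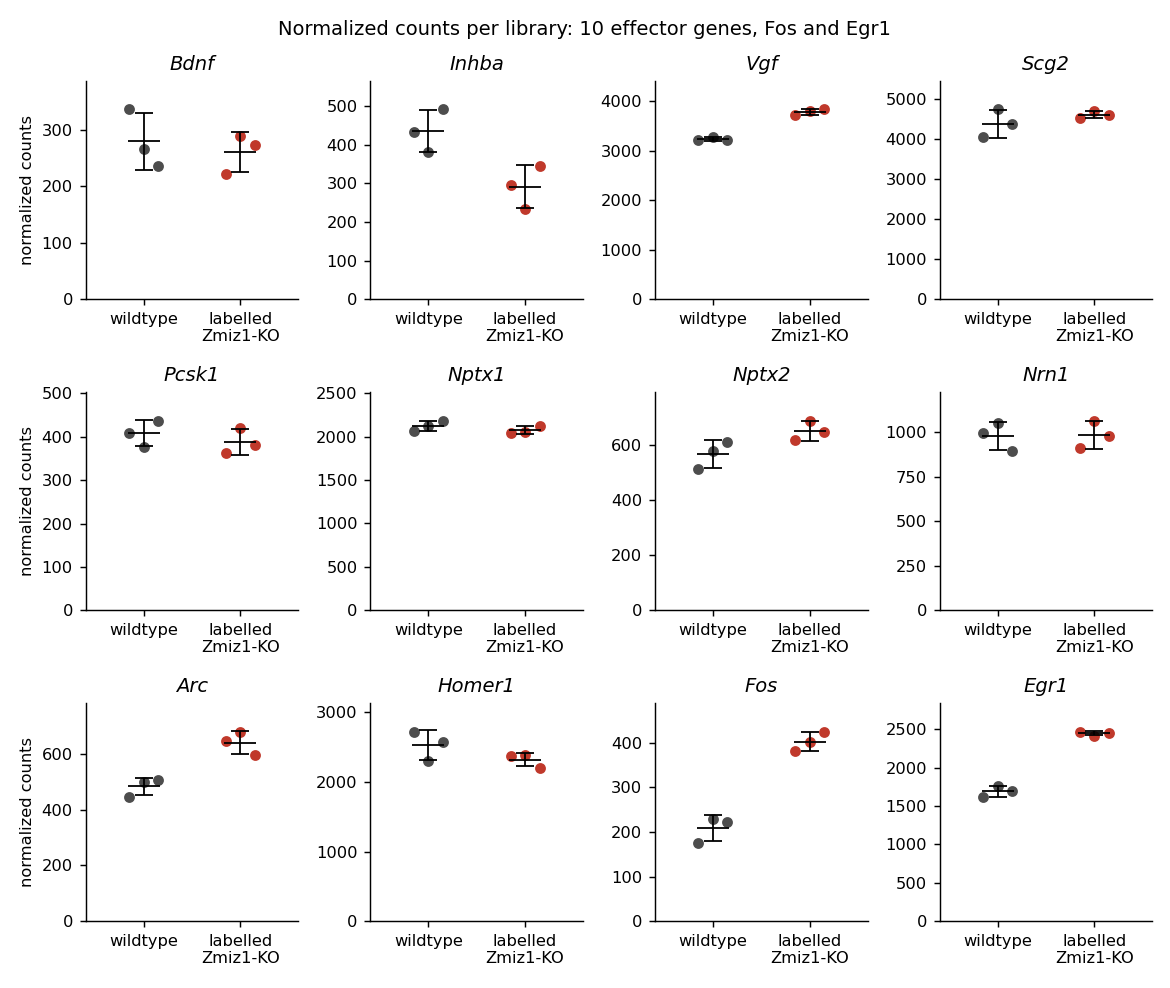
Normalized counts (vertical axes, from 0) of the 10 effector genes, Fos and Egr1 in each library (points), with the mean and SD of the 3 libraries per group (bars). Arc, Vgf, Nptx2, Fos and Egr1 lay higher in every library labelled Zmiz1-KO than in any wildtype library, and Inhba lower.

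Among the postsynaptic genes, Arc rose and Homer1 did not. Arc lies on chromosome 15, at 74669083 to 74672570 (GRCm38, as for all positions below). Its values, listed like those of all members in the order of replicates 1, 2 and 3, were 446, 498 and 505 normalized counts in wildtype and 644, 678 and 596 in the Zmiz1-KO libraries. The lowest Zmiz1-KO library was thus above the highest wildtype library. The mean went from 483 ± 31.8 to 639 ± 41.4 (SD, n = 3 each), which on the log2 scale was a rise of 0.40 (standard error 0.084, 95% confidence interval 0.23 to 0.58, limma adjusted p = 0.0444; exact permutation p = 0.1), or 1.32-fold. The change stayed between 0.35 and 0.45 when any of the libraries was dropped, but in none of these 6 fits did it pass, with limma adjusted p values of 0.0613 to 0.213. Homer1, on chromosome 13 from 93299635 to 93405129, was measured at 2719, 2303 and 2568 normalized counts in wildtype and 2374, 2382 and 2206 in the Zmiz1-KO libraries. Replicates 1 and 3 of the wildtype lay above all Zmiz1-KO values and replicate 2 lay among them. Its log2 fold change was -0.12 (standard error 0.059, 95% confidence interval -0.25 to 0.0031, limma adjusted p = 0.473). GENCODE lists 12 transcripts of Homer1, and a table per gene cannot separate the short activity-induced form from the long ones.

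Among the granins, Vgf was called and Scg2 was not, and no test compared their changes with each other. Vgf, on chromosome 5 from 137026392 to 137033351, had the smallest spread relative to its mean of all members (coefficient of variation 1.36% in wildtype and 1.61% in the Zmiz1-KO libraries), with 3202, 3282 and 3211 normalized counts in wildtype and 3713, 3806 and 3829 in the Zmiz1-KO libraries. Every Zmiz1-KO value exceeded every wildtype value by more than the whole range of either group. Its mean rose from 3232 ± 43.9 to 3782 ± 61.0 (SD, n = 3 each), or by 0.23 on the log2 scale (standard error 0.042, 95% confidence interval 0.14 to 0.31, limma adjusted p = 0.0222; exact permutation p = 0.1), or 1.17-fold. Leaving out each library gave 0.22 to 0.24, with limma adjusted p values of 0.0236 to 0.178, and Vgf passed without wildtype replicate 2 and without Zmiz1-KO replicate 2 but not in the other 4 fits. Scg2, on chromosome 1 from 79434669 to 79440120, was measured at 4033, 4729 and 4357 normalized counts in wildtype and 4510, 4697 and 4595 in the Zmiz1-KO libraries, where all values fell within the wildtype range. The change of 0.076 had a 95% confidence interval of -0.033 to 0.19 (limma adjusted p = 0.638). Pcsk1, which encodes the convertase PC1/3 and lies on chromosome 13 from 75089826 to 75134861, was measured at 409, 378 and 437 normalized counts in wildtype and 362, 420 and 381 in the Zmiz1-KO libraries. The groups overlapped, and the change was -0.074 (95% confidence interval -0.28 to 0.13, limma adjusted p = 0.848).

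Of the secreted growth factors, Inhba had lower values without overlap between groups, and Bdnf overlapped. Inhba, on chromosome 13 from 16011851 to 16031621, was measured at 434, 380 and 491 normalized counts in wildtype and 295, 235 and 345 in the Zmiz1-KO libraries. The highest Zmiz1-KO value was below the lowest wildtype value, and both groups were widely spread. The mean went from 435 ± 55.3 to 292 ± 55.2 (SD, n = 3 each), a difference of -0.59 on the log2 scale (standard error 0.14, 95% confidence interval -0.88 to -0.29), and the limma adjusted p of 0.121 did not pass (exact permutation p = 0.1). Dropping any of the libraries, the difference ran from -0.72 to -0.44, and none of these fits passed either. Bdnf, on chromosome 2 from 109674700 to 109727007, was measured at 336, 267 and 237 normalized counts in wildtype and 222, 290 and 273 in the Zmiz1-KO libraries. Wildtype replicate 1 was the highest of all 6 and the remaining values were interleaved. The change of -0.092 had a 95% confidence interval of -0.39 to 0.20 (limma adjusted p = 0.873), and without wildtype replicate 1 it was 0.048. Bdnf is the member with the fewest reads, and changes within this interval could not be told from no change. Larger ones could go uncalled too, as Inhba, with a standard error of 0.14 like that of Bdnf, was not called at -0.59. The library kit did not mark strand, and 14.4% of the exon bases of Bdnf overlap exons of Gm45346 on the opposite strand, so reads of the pair cannot be told apart there.

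The pentraxins and neuritin showed no called change. Nptx2, on chromosome 5 from 144545902 to 144557478, was measured at 512, 579 and 611 normalized counts in wildtype and 618, 689 and 646 in the Zmiz1-KO libraries. The groups did not overlap but nearly touched, at 611 and 618. The change was 0.20 (standard error 0.084, 95% confidence interval 0.022 to 0.38, limma adjusted p = 0.381; exact permutation p = 0.1). Nptx1, on chromosome 11 from 119538719 to 119547753, was measured at 2067, 2118 and 2185 normalized counts in wildtype and 2043, 2056 and 2126 in the Zmiz1-KO libraries. Its groups overlapped within a narrow range, and the 95% confidence interval of its change of -0.033 ran from -0.13 to 0.068 (limma adjusted p = 0.867). Nrn1, on chromosome 13 from 36725361 to 36735131, was measured at 992, 1050 and 896 normalized counts in wildtype and 910, 1064 and 980 in the Zmiz1-KO libraries. These values were interleaved, with a change of 0.0078 (95% confidence interval -0.15 to 0.17, limma adjusted p = 0.986). Of the exon bases of Nrn1, 22.3% overlap Fars2 on the opposite strand, with the same limit as for Bdnf.

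**Figure D2:**
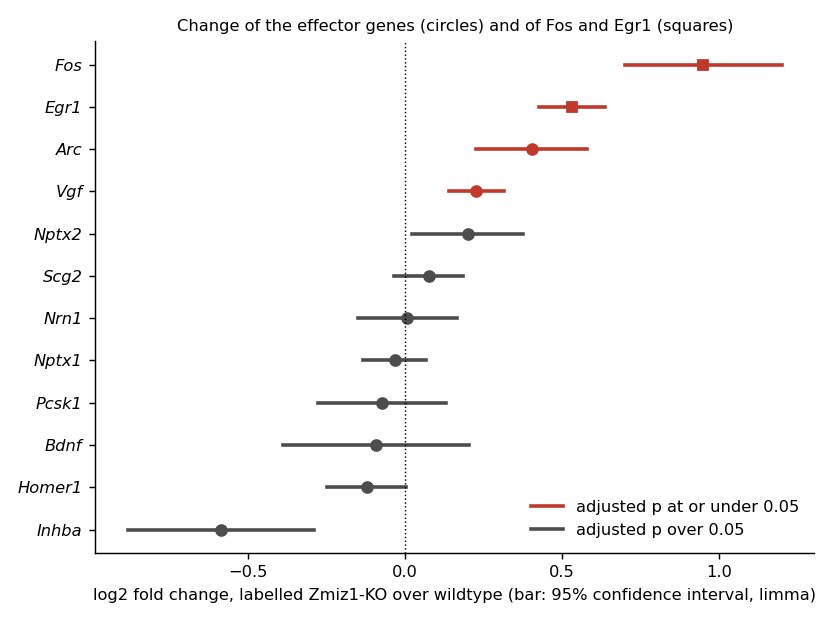
Log2 fold change (horizontal axis, labelled Zmiz1-KO over wildtype) of each effector gene (circles) and of Fos and Egr1 (squares), with 95% confidence intervals from limma and those with an adjusted p at or under 0.05 in red. Fos (0.95) and Egr1 (0.53) were the highest, followed by Arc (0.40) and Vgf (0.23), and Inhba (-0.59) was the lowest.

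The measured rise of Fos and Egr1 in the same libraries was larger than that of any member, but Egr1 and Arc could not be told apart (below). Fos, whose product joins Jun proteins in AP-1, had 175, 229 and 222 normalized counts in wildtype and 380, 402 and 424 in the Zmiz1-KO libraries, and Egr1, a zinc finger factor, had 1621, 1762 and 1691 against 2465, 2416 and 2453. Neither gene overlapped between groups, with log2 fold changes of 0.95 (standard error 0.12) and 0.53 (standard error 0.049). To compare a member with Fos, its log2 value minus that of Fos was taken in each library. For Arc this was 1.34, 1.11 and 1.18 in wildtype and 0.76, 0.75 and 0.49 in the Zmiz1-KO libraries, so Arc rose less than Fos, with a difference of changes of -0.55 (standard error 0.16; exact permutation p = 0.1). For Vgf the difference of changes was -0.72 and for Nptx2 it was -0.75, and for Inhba, with 1.30, 0.73 and 1.14 in wildtype and -0.36, -0.77 and -0.30 in the Zmiz1-KO libraries, it was -1.54. The other 6 members differed from Fos by -1.07 to -0.87. All 10 members passed an adjusted p of 0.05 (limma) in this comparison, but so did 93.6% of all tested genes, so this count says little of the members. Fos rose by 0.95 while the median tested gene changed by -0.00018, and as the same Fos values enter every difference, the p values of different genes are not independent. Limma also learns the spread of these differences from all genes, which share the Fos values. Its p values and intervals here thus overstate what 6 libraries can show, and the same limit holds for Egr1 below.

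Against Egr1, Arc was the exception. Its log2 value minus that of Egr1 was -1.86, -1.82 and -1.74 in wildtype and -1.94, -1.83 and -2.04 in the Zmiz1-KO libraries, and the groups overlapped. The difference of changes of -0.13 (95% confidence interval -0.31 to 0.057, limma adjusted p = 0.189; exact permutation p = 0.2) does not show that Arc and Egr1 rose alike. The other 9 members passed, against 83.9% of all tested genes, with differences of -0.31 for Vgf and -0.33 for Nptx2 down to -1.12 for Inhba. These counts of 10 and 9 were the same in all 18 alternatives, but as most tested genes pass, they say little of the members.

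**Figure D3:**
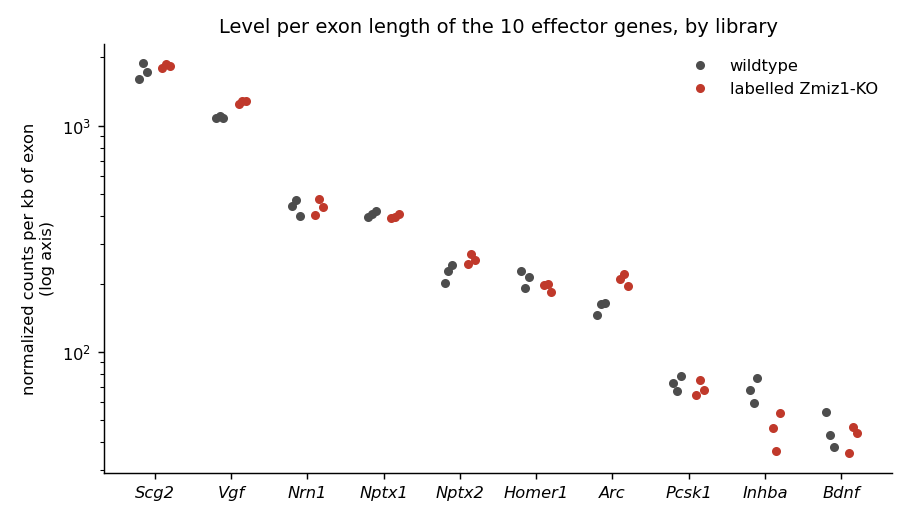
Normalized counts per kilobase of exon (vertical log axis) of the 10 effector genes in each library, wildtype in grey and labelled Zmiz1-KO in red, ordered by the wildtype mean. Scg2 (1739 in wildtype) and Vgf (1087) were the highest, and Pcsk1, Inhba and Bdnf (72.8, 68.1 and 45.0) the lowest.

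Levels of different genes were compared per kilobase of the exons that GENCODE lists. In wildtype, the granins stood at the top, with 1739 ± 138 normalized counts per kilobase for Scg2 and 1087 ± 14.8 for Vgf (SD, n = 3). Nrn1 with 436 ± 34.4 and Nptx1 with 407 ± 11.3 followed and overlapped each other, and so did Nptx2 with 224 ± 20.0 and Homer1 with 211 ± 17.6. Arc had 158 ± 10.4, and Pcsk1 (72.8 ± 5.33) and Inhba (68.1 ± 8.65) overlapped above Bdnf (45.0 ± 8.21). In the libraries labelled Zmiz1-KO, Arc moved up to 209 ± 13.5 and overlapped Homer1, at 194 ± 8.30, while Inhba stood at 45.6 ± 8.65 and overlapped Bdnf, at 42.1 ± 5.71. The most abundant and the least abundant members thus differed far more within a library than any member did between groups, and the exon length of a gene with many transcripts, such as Homer1, is only an approximation of the transcripts present.

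The receptors, inhibitors, relatives and partners of the members were taken from 6 lists of 63 genes in all, of which 61 were tested. None was called in either direction (limma), while 13 had an unadjusted p under 0.05, which is 21.3% against 11.0% of all tested genes, and their median log2 fold change was -0.0097. For Bdnf, the TrkB gene Ntrk2 had 17833 ± 325 and 17532 ± 201 normalized counts (SD, n = 3 per group), and of the 7 tested genes of the list 1 was higher and 6 lower. Among 14 activin genes, 6 were higher and 8 lower. The receptor genes Acvr2a and Acvr1b had log2 fold changes of -0.044 and -0.12 (limma adjusted p = 0.810 and 0.351), and the inhibitor Fst had 70.1 ± 11.3 and 64.9 ± 12.1. The activin genes with the lowest unadjusted p, chosen after their values were seen, were the receptor gene Acvr1c, at 225 ± 17.7 and 164 ± 18.3 (log2 fold change -0.46, limma adjusted p = 0.185), and the follistatin-like Fstl1, at 3346 ± 71.4 and 3767 ± 194 (0.17, limma adjusted p = 0.168), neither overlapping between groups. Of the 14 granin and processing genes, Pcsk2, the other main convertase, had 6436 ± 638 and 6374 ± 120, Cpe, a carboxypeptidase that trims the peptides, 38652 ± 1553 and 39861 ± 921, Chgb 7434 ± 308 and 7167 ± 71.1, and Scg3 6384 ± 126 and 6414 ± 106. Thus the granins other than Vgf had no called change. Nptxr, the transmembrane pentraxin, had a log2 fold change of 0.036 (95% confidence interval -0.037 to 0.11), Homer2 of 0.046 and Homer3 of -0.0076. These paralogs overlapped between groups. Of all the partners, the AMPA receptor subunit genes Gria1 and Gria2, also chosen after their values were seen, had the lowest unadjusted p, and neither overlapped between groups. Gria1 had 12222 ± 312 and 13664 ± 567 (log2 fold change 0.16, limma adjusted p = 0.112), and Gria2 had 14724 ± 830 and 12608 ± 903 (-0.22, limma adjusted p = 0.132). The sums of the Bdnf list (46307 to 47120 in wildtype, 45001 to 46163 in the Zmiz1-KO libraries) and of the neuritin list (4689 to 5097 and 4494 to 4560) were lower without overlap, and those of the other 4 lists overlapped. The neuritin sum is almost all Insr and Igf1r, as the relative Nrn1l, at 6.89 ± 3.29 and 7.03 ± 4.32, was too low to test. With each gene given the same weight, as for the members, the neuritin list overlapped (-0.23 to 0.19 and -0.49 to 0.10). This mean gives Nrn1l the weight of the other genes, and Nrn1l was at 2.05 in Zmiz1-KO replicate 3, the library at -0.49. The mean without Nrn1l was not taken, so this overlap says little of Insr and Igf1r. The Bdnf list was then higher without overlap (-0.13 to 0.077 and 0.083 to 0.16), although 6 of its 7 tested genes were lower. This mean includes Ntf5, too low to test at 2.75 ± 3.13 and 3.91 ± 2.06. Ntf5 was at 0 in wildtype replicate 1, the library at -0.13. The mean without Ntf5 was not taken, so a rise of the Bdnf list is not shown.

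Beyond the members, 28 other activity-induced effectors and 10 factors that calcium regulates were examined. Of the 28, 18 were higher and 10 lower, with a median log2 fold change of 0.080, none was called (limma) and 3 had an unadjusted p under 0.05. Their summed level was 33554 to 34452 normalized counts in wildtype and 35955 to 36059 in the Zmiz1-KO libraries, without overlap. Penk, Tac1 and Pdyn on this list are also genes of striatal projection neurons, and Sst, Npy and Cort of interneurons. The 10 calcium-regulated factors, among them Creb1, Mef2a and Srf, had a median of -0.022 and no call, with 1 unadjusted p under 0.05. Of these, 4 were higher and 6 lower. Their summed level was lower without overlap, at 71822 to 81535 normalized counts in wildtype and 69158 to 71473 in the Zmiz1-KO libraries. Mef2c, the most abundant of them, weighs most in this sum, with 36806 ± 4333 and 31217 ± 1485 (SD, n = 3 per group), and the sum without it was not taken. With each factor given the same weight, the means of log2 values relative to wildtype were -0.027 to 0.044 in wildtype and -0.067 to -0.032 in the Zmiz1-KO libraries.

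**Figure D4:**
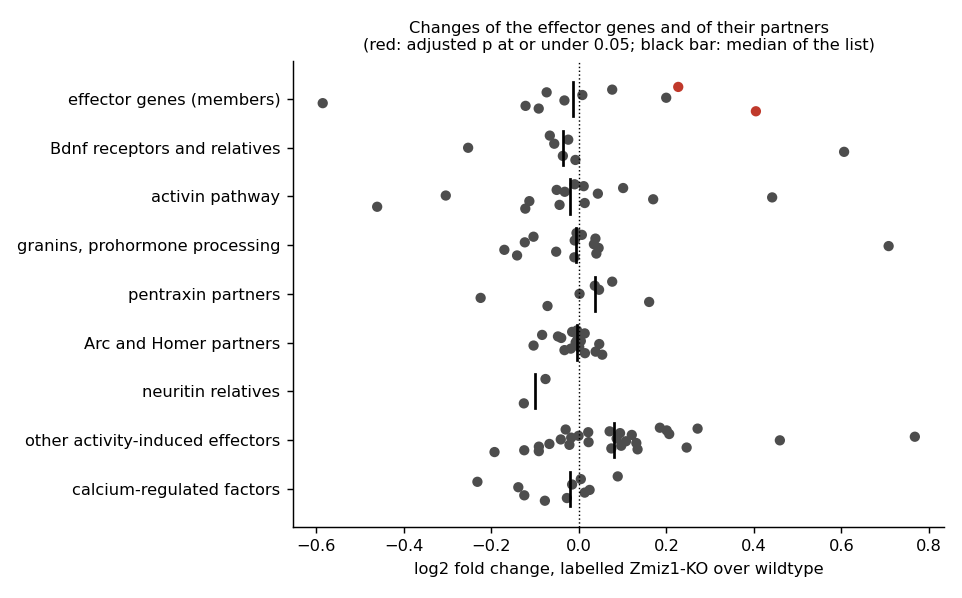
Log2 fold changes (horizontal axis, labelled Zmiz1-KO over wildtype) of every tested gene in the member list, the lists of partners, the other activity-induced effectors and the calcium-regulated factors, with the median of each list as a black bar. The red points, with an adjusted p at or under 0.05, are Arc and Vgf.

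Markers of other cells moved with the groups as well. The 6 striatal projection neuron genes Drd1, Drd2, Adora2a, Ppp1r1b, Gpr6 and Rgs9 were all positive, by 0.12 to 0.50, with no call (limma) and 1 unadjusted p under 0.05, and none was at 0. Their sum was 7161, 9358 and 9877 normalized counts in wildtype and 10797, 11295 and 10057 in the Zmiz1-KO libraries, and from lowest to highest the libraries had the same order as for Arc. This match was seen among many lists and members after the values were known. How many genes share the order was not counted, and a link between Arc and these genes was not tested. The 8 interneuron genes were also all positive and none called, with 5 at an unadjusted p under 0.05 and sums of 13863 to 18145 in wildtype and 18354 to 20592 in the Zmiz1-KO libraries. Of the 8 oligodendrocyte lineage genes 7 were negative, 4 of them at an unadjusted p under 0.05 and none called, and their sum was lower without overlap, at 12411 to 14116 in wildtype and 11534 to 11990 in the Zmiz1-KO libraries. The sums of the other 8 marker lists overlapped, among them that of excitatory neurons, at 55282 to 60391 and 56709 to 58164. Of the 69 genes on 11 marker lists, Aqp4 of astrocytes alone was called. The part of the cell makeup in the changes of Arc, Vgf, Nptx2 and Inhba was not tested, and in bulk RNA fewer cells of a type and less RNA per cell cannot be told apart. Without wildtype replicate 1, the library with the least of the striatal and interneuron genes, the log2 fold change was 0.35 for Arc (limma adjusted p = 0.178), 0.22 for Vgf (limma adjusted p = 0.0784), 0.13 for Nptx2 (limma adjusted p = 0.692) and -0.58 for Inhba (limma adjusted p = 0.276).

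**Figure D5:**
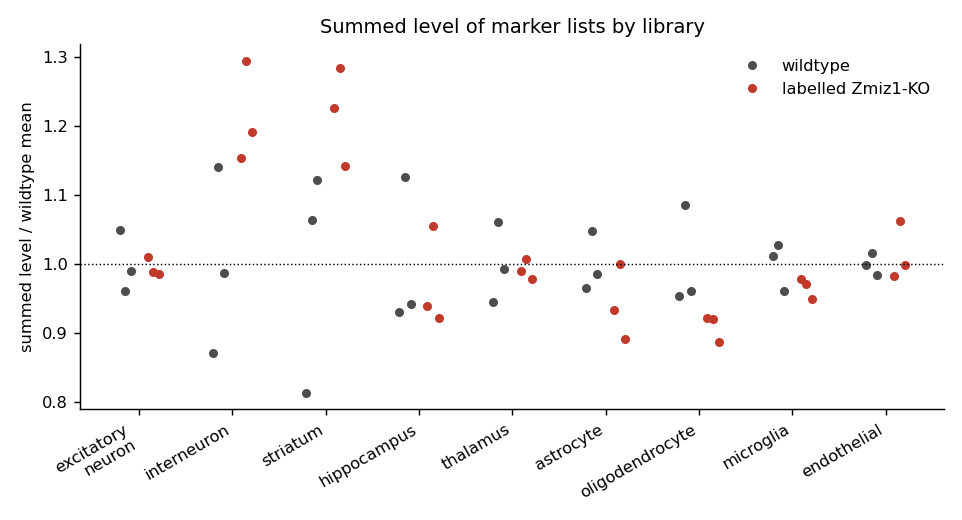
Summed normalized counts of marker gene lists in each library, divided by the wildtype mean of the list (vertical axis), wildtype in grey and labelled Zmiz1-KO in red. The striatum and interneuron sums were higher in every library labelled Zmiz1-KO than in any wildtype library, the oligodendrocyte sums were lower in every such library, and the excitatory neuron sums overlapped.

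The genes whose course over the 6 libraries was most like that of each member were found by the root mean square difference of log2 values, each gene centred on its own mean. For Arc these were Pde10a, a phosphodiesterase of striatal neurons, at 0.033, and Fndc9, at 0.045. Pde10a itself was higher by 0.37 on the log2 scale (adjusted p = 0.00303 by limma). For Vgf they were Usf1 (0.025) and Zfp385a (0.028), and for Nptx2 the closest was Rgs2 (0.021), which is on the list of other activity-induced effectors. For Inhba the closest was Emx1, at 0.11, a looser match, and the log2 fold change of Emx1 was -0.53 (adjusted p = 0.0150 by limma). Emx1 is also the gene from which Cre is driven in the Zmiz1-KO libraries alone. Whether this bears on the level of Emx1 was not tested. With 15800 genes and 6 libraries, close matches are found for many genes, and these are descriptions. Within the groups, Zmiz1-KO replicate 2 had the highest of the 3 Zmiz1-KO values in 7 of the 10 members, while this held for 37.7% of all tested genes, and Zmiz1-KO replicate 1 had the lowest in 7, against 30.6%.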

How the data were processed

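Reads of 6 cortex libraries, made without strand marking, were aligned by the authors with STAR on the BaseSpace platform (mm10) and their counts normalized with DESeq2. The deposited table holds this signal, here named normalized counts, as 1 value per gene and library. Versions and the gene annotation are not given in the sources used here. Low values lie near multiples of a step that differs slightly between genes, so whole reads were not recovered and no count test was run. The members and gene lists were chosen with earlier results of these data known.

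Values were tested as log2(value + 1) in 15800 genes with at least 10 in at least 3 libraries, by limma (version 3.58.1, R version 4.3.3) with an intensity trend and robust estimation, without covariates, with two-sided p values and Benjamini-Hochberg adjustment over all tested genes, and genes were called at an adjusted p of 0.05 or less. The same fit was applied to differences from Fos and Egr1. Named genes are the members, Fos, Egr1, Zmiz1, called genes of the lists, direct receptors, inhibitors and paralogs, and the 2 most alike genes per member, of which some are printed. Pathway genes outside this rule were named to describe a list. Exon lengths and overlaps are from GENCODE M21 and promoters from RefSeq (GRCm38.p6). The procedure was tested on simulated data. Depth, about 15494889 to 17858391 reads per library if a step is a single read, and 3 libraries per group limit the precision. Alternatives were 3 scalings, 2 pseudocounts, 2 filters, limma-voom, no robust estimation, the replicate number as a block, each library left out, an adjusted p of 0.1 and, added after seeing the data, a term for Xist. Plots were made in Python 3.11.15 with matplotlib 3.10.9.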

Additional observations from a re-analysis of the deposited data

How the results depend on the processing

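The comparisons with Fos and Egr1 gave the same counts of members under all 18 alternatives. As Fos and Egr1 themselves rose, 93.6% and 83.9% of all tested genes passed these comparisons in the fit reported above. The constant counts thus say little of the members. Between Zmiz1-KO and wildtype, Fos, Egr1 and Zmiz1 passed in all 18, Vgf in 13 and Arc in 10. Limma-voom called 1 member, leaving out Arc (adjusted p = 0.0561), and limma without robust estimation called 0 members and 17 genes. The replicate number as a block gave 168 genes, with Inhba as an added called member (limma adjusted p = 0.00759), 3 in all, but the deviations of same-numbered libraries correlated by -0.224 to 0.0837, so the numbers were not taken as pairs. An adjusted p of 0.1 gave 106 genes and the same 2 members. With each library left out in turn, 12 to 152 genes and 0 to 1 members were called, and the median change of the members ran from -0.038 to 0.043. The count of genes was 30 without wildtype replicate 1, 17 without Zmiz1-KO replicate 1, 152 without Zmiz1-KO replicate 2 and 12 without Zmiz1-KO replicate 3. Bdnf and Nrn1, neither called, changed sign. Bdnf ran from -0.20 to 0.048, at 0.048 without wildtype replicate 1 and 0.022 without Zmiz1-KO replicate 1, and Nrn1 ran from -0.054 to 0.063, at -0.054 without wildtype replicate 3 and -0.050 without Zmiz1-KO replicate 2. The cause of these shifts was not tested, though each of these fits has fewer libraries. A term for Xist, added after the data were seen, kept both calls. Counting error at the lowest member values, 9.47% for Bdnf and 8.83% for Inhba if a step is a single read, limits what can be seen of small changes.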
